A study of Mus musculus with 21 samples.

Results

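The first day of erythroid differentiation was measured as the difference between 3 libraries of MEDEP cells taken after 24 h in erythropoietin (Epo) and 3 libraries taken at 0 h, which were chosen by their labelled time and are 6 of the 21 libraries of the series. MEDEP cells are erythroid progenitors that were made from mouse embryonic stem cells and grow without limit, and the labels name a single line, BRC5, for every library. The 24 h cells had been moved from growth medium to medium without stem cell factor (SCF) and without dexamethasone (dex), with 4 U/ml Epo added, whereas the 0 h cells were still multiplying with SCF and dex and without added Epo, and neither group received the heme synthesis inhibitor succinyl acetone. Loss of SCF, loss of dex, added Epo and the day in culture came together, so their effects cannot be told apart here. The growth medium was IMDM with fetal calf serum, ascorbic acid, ITS complement and alpha-TG. Polyadenylated RNA was sequenced with strand kept, and 3 libraries taken at 12 h in Epo were used only to date the changes within the day. The design text calls the 3 libraries of a group biological replicates, but no label says whether they came from separate cultures, so p-values measure the spread between these samples, which may be technical.

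SCF signals through the receptor tyrosine kinase Kit, and together with a glucocorticoid such as dex it keeps erythroid progenitors dividing without maturing. Epo signals through its receptor, the kinase JAK2 and the transcription factor STAT5, and carries the cells through further divisions in which they make hemoglobin, take up iron and build the spectrin-based red cell membrane. In this step GATA1 is known to take over from GATA2 at many shared target genes, with KLF1 and TAL1 as partners.

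Estimated counts summed to 31.5 ± 7.23 M (M, counts in units of 1e6) per library at 24 h and 29.2 ± 4.66 M at 0 h (SD, n = 3 each). Counts of replicates differed by more than sampling noise in every pair. The chi-square per gene was 26.6 and 19.4 in the pairs with replicate 1 of the 24 h group and 6.6 to 10.0 in the other pairs. All libraries were kept. Globin genes took 4.76% ± 0.441 of the counts at 24 h and 0.0613% ± 0.0143 at 0 h (SD, n = 3 each). All 10 erythroid markers rose, with a summed level of 28320 to 32402 CPM at 24 h and 1198 to 1367 CPM at 0 h, where CPM is counts per 1e6 counts scaled by the trimmed mean of M-values. Of the markers of other blood cells, 3 of 12 macrophage genes, 2 of 11 neutrophil genes and 2 of 11 lymphocyte genes passed the filter on low counts. Macrophage markers summed to 2.35 to 3.21 CPM at 24 h and 0.609 to 0.745 CPM at 0 h. Neutrophil markers summed to 0.0783 to 0.187 CPM at 24 h and 0 to 0.0741 CPM at 0 h. Lymphocyte markers summed to 0.592 to 0.995 CPM at 24 h and 0.852 to 1.18 CPM at 0 h. Adgre1, Lyz2, S100a8 and Cd3e had 0 to 2 counts in each of the 6 libraries. Csf1r had 86, 80 and 70 counts at 24 h and 9, 3 and 6 counts at 0 h. Cd68 had 24, 30 and 27 counts at 24 h and 24, 16 and 28 counts at 0 h, and Cd3d had 26, 20 and 14 counts at 24 h and 50, 26 and 38 counts at 0 h. The part of such cells in the results was not tested. Since this is bulk RNA, fewer cells of a type and less RNA per cell cannot be told apart. Replicate 1 of the 24 h group stood apart in glycolysis genes. Its median log2 deviation from its 2 partner libraries was -0.73 over the 22 glycolysis genes tested. Over all genes the median was 0, but the scaling of CPM keeps that value near 0 in every library. The glycolysis genes named below are given with and without replicate 1.

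A majority of the genes tested changed during the day. Of 12360 genes that passed the filter on low counts, 8151 (65.9%) had an adjusted p of at most 0.05 in the edgeR quasi-likelihood test with Benjamini-Hochberg adjustment, and such genes are called changed throughout. Of these, 3967 (32.1%) were higher and 4184 (33.9%) were lower at 24 h. A fold of at least 2 was reached by 3883 called genes (31.4%), of which 1968 (15.9%) were higher and 1915 (15.5%) lower, and the 3 libraries at 24 h did not overlap the 3 at 0 h in 9280 genes (75.1%). The split depends on the scale: on deposited TPM (transcripts per 1e6 transcripts), limma called 1794 of 9525 genes higher (18.8%) and 5017 lower (52.7%). The median log2 change over all genes was 0.03 on the TMM scale and -0.40 on log2(TPM + 1), a shift of -0.34 over the genes in both fits, so that counts of lists with a median near 0 move with the scale.

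**Figure D1:**
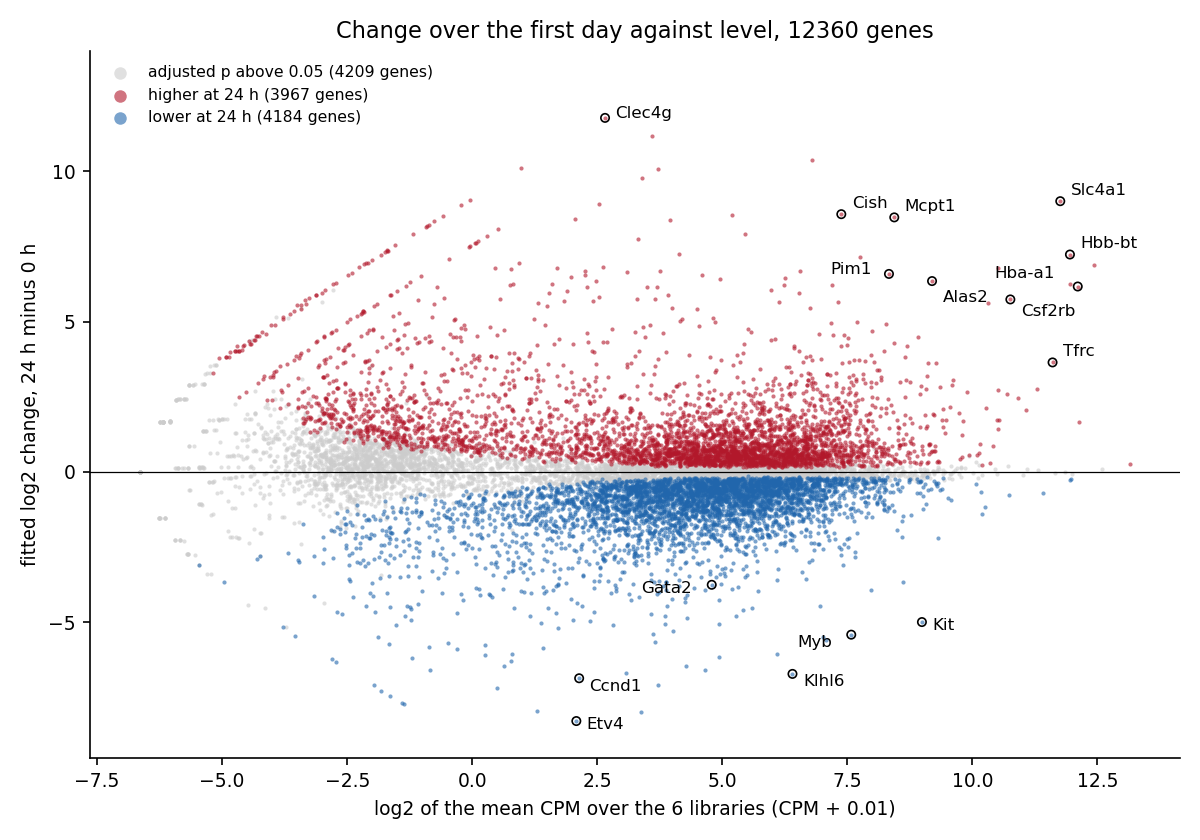
Fitted log2 change (24 h minus 0 h, vertical axis) against the log2 mean CPM over the 6 libraries (horizontal axis) for 12360 genes, with 3967 genes higher at 24 h in red, 4184 lower in blue and genes above the threshold in grey. Slc4a1 and the adult globins combine a high level with a large rise, and Kit and Myb stand out among the well-expressed genes that fell; the straight diagonal lines at low levels are genes with few or no counts at 0 h (horizontal axis: log2 of CPM + 0.01).

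Globin genes rose by the widest margin of the lists described. All 10 globin genes tested rose (background 32.1% higher), with a median log2 change of 6.21 against 0.03 over all genes. For this and every later list count the shares over all genes were 32.1% higher and 33.9% lower on the TMM scale. They were 18.8% and 52.7% on log2(TPM + 1). The near-identical copies of each adult chain share reads, so their counts were summed. The alpha chain sum, Hba-a1 with Hba-a2, was 16495, 18174 and 14686 CPM at 24 h, against 266, 238 and 163 CPM at 0 h. Its log2 change was 6.21 ± 0.21 (SE; adjusted p = 7.93e-16). The adult beta chain sum, Hbb-bs with Hbb-bt, was 19888, 20162 and 16419 CPM at 24 h, against 112, 217 and 111 CPM at 0 h, a log2 change of 7.01 ± 0.27 (SE; adjusted p = 8.76e-15). The groups were far apart for both chains. Per length, in TPM, the alpha sum averaged 67504 ± 6011 at 24 h and 931 ± 194 at 0 h, and the beta sum averaged 82125 ± 8083 at 24 h and 699 ± 294 at 0 h (SD, n = 3 each). The embryonic beta-like gene Hbb-bh1 also rose from a very low level: it had 22.9, 36.7 and 32.9 CPM at 24 h and 0.115, 0.102 and 0.0556 CPM at 0 h, a log2 change of 8.37 ± 0.76 (SE; adjusted p = 4.21e-09).

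The whole heme synthesis pathway rose with the globins. All 8 enzymes rose, with a median log2 change of 2.86 and a range of 2.48 to 6.35. Alas2 (chrX:150547375-150570638, plus strand, GRCm38) encodes the erythroid form of 5-aminolevulinate synthase, the first enzyme of the pathway. It had 1166, 1208 and 1094 CPM at 24 h, against 15.9, 14.5 and 12.3 CPM at 0 h. Its log2 change was 6.35 ± 0.19 (SE; adjusted p = 1.44e-16), and no library of one group came near the other. The other 7 enzymes, which start from levels of 13.2 to 385 CPM at 0 h, rose within a narrow band of log2 2.48 to 3.49, from Urod, uroporphyrinogen decarboxylase, to Uros, uroporphyrinogen III synthase. Alas1, the housekeeping form of the first enzyme, went the other way. It had 5.36, 6.10 and 5.36 CPM at 24 h, against 9.72, 10.7 and 11.2 CPM at 0 h, and its log2 change was -0.90 ± 0.13 (SE; adjusted p = 4.98e-06).

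Promoter sequence is shown for Alas2, the heme gene with the largest rise, and for Hsd17b7, a cholesterol synthesis gene described further below. From each of 4 lists the called member with the largest change among those with a RefSeq promoter window was taken. Those of the Epo and STAT5 target list and the membrane list are not shown, because too few bases lay before the annotated gene. Bases are from RefSeq on GRCm38.p6, 5′ to 3′ on the strand of the gene, and end at the last base before the annotated gene in GENCODE M21. Capitals mark a match on either strand to 1 of 4 motifs, namely AGATAA (bound by GATA factors), TTCNNNGAA (STAT5), CCNCNCCCN (the CACCC box of Krüppel-like factors) and TCACNCCAC (sterol response). The Alas2 stretch is chrX:150547167-150547374 on the plus strand, and the Hsd17b7 stretch is chr1:169969242-169969455 on the minus strand.
Alas2: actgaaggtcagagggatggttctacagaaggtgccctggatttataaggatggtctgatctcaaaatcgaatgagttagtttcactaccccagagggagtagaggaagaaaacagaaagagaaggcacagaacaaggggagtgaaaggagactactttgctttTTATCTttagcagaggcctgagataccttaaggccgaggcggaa
Hsd17b7: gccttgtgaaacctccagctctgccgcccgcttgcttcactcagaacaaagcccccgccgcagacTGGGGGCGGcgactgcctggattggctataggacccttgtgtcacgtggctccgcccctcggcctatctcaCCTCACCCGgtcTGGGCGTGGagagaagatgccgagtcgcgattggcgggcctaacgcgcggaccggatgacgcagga
The Alas2 stretch holds 1 GATA match, whose first base lies 86 bases before the RefSeq start, and the Hsd17b7 stretch holds 3 CACCC matches. The Alas2 stretch ends 42 bases before the RefSeq start. With those bases included, Alas2 also has 4 CACCC matches. In the 250 bases before the RefSeq start, the GATA letters were in 1 of the 6 heme synthesis genes and 5 of the 21 membrane genes with a window (16.7% and 23.8%), against 9.99% of all 32817 windows. None of 13 Epo and STAT5 target genes and none of 17 cholesterol genes held them. The CACCC letters were in 13 of 17 cholesterol genes (76.5%), against 45.8% of all windows. They were as common in the Epo and STAT5 target genes, at 10 of 13 (76.9%). In the membrane genes they were in 13 of 21 (61.9%), and in the heme synthesis genes in 3 of 6 (50.0%). The sterol letters were in 1 of 17 cholesterol genes (5.88%), against 1.05% of all windows. The STAT5 letters were in 2 of the 13 Epo and STAT5 target genes with a window (15.4%), against 7.01% of all windows. These are matches of letters, not sites shown to be bound, and the letters of some CACCC matches overlap in GC-rich stretches.

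Transcripts for the red cell surface and the spectrin network under it were higher at 24 h. Of 29 members tested, 26 rose and 1 fell (median log2 change 1.97). Slc4a1 (chr11:102348824-102366203, minus strand, GRCm38) encodes band 3, the anion exchanger that anchors the skeleton. It had 6458, 7499 and 6752 CPM at 24 h, against 12.3, 15.1 and 13 CPM at 0 h. The log2 change of 9.0 ± 0.20 (SE; adjusted p = 4.87e-18) is a 512-fold rise with no overlap between the groups. Dmtn, the actin-bundling protein dematin, averaged 493 ± 23.2 CPM at 24 h and 18.9 ± 2.01 CPM at 0 h (SD, n = 3 each), a log2 change of 4.70. Epb42, protein 4.2, averaged 472 ± 21.3 CPM at 24 h and 32.0 ± 3.19 CPM at 0 h (SD, n = 3 each), a log2 change of 3.88. Rhag, the Rh-associated glycoprotein, was not called, with 505 ± 29.1 CPM at 24 h and 500 ± 24.5 CPM at 0 h (SD, n = 3 each; log2 change 0.02 ± 0.12, SE; adjusted p = 0.924). The member that fell was Piezo1, a mechanically gated cation channel, with a log2 change of -0.44 ± 0.12 (SE; adjusted p = 0.00356).

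Genes of iron handling moved in both directions. Tfrc, the transferrin receptor, had 6023, 5668 and 5573 CPM at 24 h, against 464, 486 and 433 CPM at 0 h, with no overlap and a log2 change of 3.64 ± 0.14 (SE; adjusted p = 1.08e-14). Slc25a37, mitoferrin 1, which carries iron into mitochondria, had a log2 change of 5.63 ± 0.25 (SE; adjusted p = 8.10e-14). Of 12 heme and iron transporters 7 rose and 3 fell, and the largest fall was that of the plasma membrane heme exporter Flvcr1 (log2 change -2.20 ± 0.10, SE; adjusted p = 7.34e-14). Among 15 genes of iron uptake, sensing and storage, 4 rose and 5 fell, near the shares over all genes (median log2 change 0.09; 4 and 6 of 13 on log2(TPM + 1)), with the ferritin chains Fth1 (1.73) and Ftl1 (1.72) among the rises and the second transferrin receptor Tfr2 (-1.44), the iron-sensing ubiquitin ligase part Fbxl5 (-1.31) and the iron exporter Slc40a1 (-1.05) among the falls (log2 change). Iron-sulfur cluster genes were mixed, 8 of 20 higher and 7 lower, or 5 and 8 on log2(TPM + 1); Glrx5, a cluster carrier, had a log2 change of 1.81 and the ferredoxin Fdx1 of -1.60.

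The receptor for the withdrawn ligand and most of the tested targets of its signal were lower at 24 h. Kit (chr5:75574916-75656722, plus strand, GRCm38) had 28.5, 32.7 and 32.0 CPM at 24 h, against 976, 957 and 1025 CPM at 0 h. This is a 31.7-fold fall, a log2 change of -4.99 ± 0.24 (SE; adjusted p = 1.60e-13), with no overlap between the groups. Of 17 Kit and ERK pathway targets tested, 11 fell (background 33.9% lower) and 3 rose (median -1.68 on the log2 scale), or 7 and 2 of 10 on log2(TPM + 1). Ccnd1, cyclin D1, had 0.0587, 0.0226 and 0.156 CPM at 24 h, against 6.74, 9.88 and 9.48 CPM at 0 h, a log2 change of -6.86 ± 0.56 (SE; adjusted p = 7.84e-10), and of -7.58 without replicate 3 of the 24 h group. Etv4, an ETS factor downstream of ERK, had 3 counts in all at 24 h and 1232 at 0 h, so that it was 359-fold lower with a 95% counting interval of 123-fold to 1743-fold. All 3 of those counts were in replicate 2 of the 24 h group. The fitted log2 change was -8.28, and -11.16 without that library, when every remaining 24 h library is at 0 and the fit gives no bound. The ERK phosphatase gene Dusp6 had a log2 change of -4.15 ± 0.34 (SE; adjusted p = 8.20e-10). The 3 that rose were Spred3, Spry1 and Phlda1, at log2 changes of 1.23, 1.19 and 1.13 from low levels at 0 h; SPRED and SPRY proteins are inhibitors of the same pathway.

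Most of the tested target genes of the Epo pathway rose, while the STAT5 genes fell. Of 17 Epo and STAT5 target genes, 14 rose and 2 fell (median log2 change 2.57). Cish (chr9:107296026-107302784, plus strand, GRCm38), a STAT5-induced inhibitor of cytokine receptors, had 346, 324 and 325 CPM at 24 h, against 0.935, 0.838 and 0.833 CPM at 0 h. Its log2 change was 8.57 ± 0.21 (SE; adjusted p = 8.80e-18), a 380-fold rise with little spread in either group. The survival kinase Pim1 had 608, 701 and 603 CPM at 24 h, against 6.36, 7.64 and 6.0 CPM at 0 h, a log2 change of 6.58 ± 0.18 (SE; adjusted p = 5.39e-17). Erfe, erythroferrone, the hormone by which erythroblasts lower hepcidin, averaged 152 ± 4.47 CPM at 24 h and 1.74 ± 0.287 CPM at 0 h (SD, n = 3 each), a log2 change of 6.43 ± 0.23 (SE; adjusted p = 2.76e-15). Socs3 (6.36), Osm (6.14), Socs1 (3.94), Ccnd3 (3.63), Bcl2l1 (2.57) and Socs2 (2.28) also rose (log2 change). The 2 that fell were Spred2 (-2.08), a Spred family inhibitor of ERK signalling, and the kinase Pim3 (-0.53 ± 0.23, SE; adjusted p = 0.0457), whose fall was not called in 8 of the 9 fits that left out 1 library (adjusted p = 0.0509 to 0.147) or without the filter on low counts (adjusted p = 0.0621). Of 13 signalling parts 6 rose and 5 fell, or 3 and 5 on log2(TPM + 1). Epor had 135, 129 and 130 CPM at 24 h, against 83.4, 71.0 and 73.3 CPM at 0 h, a log2 change of 0.79 ± 0.10 (SE; adjusted p = 5.64e-07) that was 0.47 and not called on log2(TPM + 1). Stat5a had 12.5, 10.2 and 11.8 CPM at 24 h, against 76.4, 74.3 and 78.1 CPM at 0 h, a log2 change of -2.72 ± 0.11 (SE; adjusted p = 1.39e-14), and Stat5b had one of -1.19 ± 0.08 (SE; adjusted p = 4.96e-11). The adaptor Irs2 rose (2.62), and the receptor-degrading ligase Cbl fell (-1.55).

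Of 18 cytokine receptor genes 7 rose and 6 fell, near the shares over all genes (4 and 6 of 11 on log2(TPM + 1)). Csf2rb, the beta common chain shared by the GM-CSF, IL-3 and IL-5 receptors, had 3739, 3055 and 3405 CPM at 24 h, against 108, 31.7 and 51.5 CPM at 0 h. Its log2 change was 5.73 ± 0.33 (SE; adjusted p = 3.17e-12), or 6.35 without replicate 1 of the 0 h group, and the 0 h libraries spread more than 3-fold among themselves. Its close paralog Csf2rb2 had 3287, 2508 and 2934 CPM at 24 h, against 45.2, 13.8 and 20.3 CPM at 0 h, a log2 change of 6.78 ± 0.34 (SE; adjusted p = 4.94e-13), or 7.41 without that library. Reads shared by the 2 copies may have been split between them, so each value is uncertain on its own. The largest fall of the list was that of the interferon gamma receptor chain Ifngr1 (log2 change -3.55 ± 0.22, SE; adjusted p = 1.10e-11).

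Glucocorticoid targets fell more often than they rose, with exceptions in both directions. Dex was withdrawn together with SCF while Epo was added, so what moved these targets was not tested. Of 19 tested, 10 fell and 4 rose (median log2 change -0.84). Sgk1, a glucocorticoid-induced kinase, had 3.19, 4.21 and 2.78 CPM at 24 h, against 94.5, 77.5 and 74.1 CPM at 0 h, a log2 change of -4.59 ± 0.14 (SE; adjusted p = 1.66e-16). Zfp36l2, an RNA-binding protein known to keep erythroid progenitors self-renewing, averaged 57.4 ± 4.29 CPM at 24 h and 724 ± 17.4 CPM at 0 h (SD, n = 3 each), a log2 change of -3.66 ± 0.15 (SE; adjusted p = 2.72e-14). Per1 (-2.64), Zbtb16 (-2.42) and Fkbp5 (-2.24) fell as well (log2 change). The MAP kinase phosphatase Dusp1, also a glucocorticoid target in other cells, rose: it had 90.7, 93.3 and 91.4 CPM at 24 h and 4.98, 3.33 and 2.61 CPM at 0 h, a log2 change of 4.65 ± 0.20 (SE; adjusted p = 4.04e-14). Tsc22d3, a classical glucocorticoid target, was not called, with 46.2 ± 5.26 CPM at 24 h and 40.5 ± 2.04 CPM at 0 h (SD, n = 3 each; log2 change 0.19 ± 0.10, SE; adjusted p = 0.109). It was called higher with only the compared groups in the fit (0.21; adjusted p = 0.0306). Nr3c1, the glucocorticoid receptor gene, fell by 0.73 on the log2 scale (adjusted p = 7.45e-06).

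**Figure D2:**
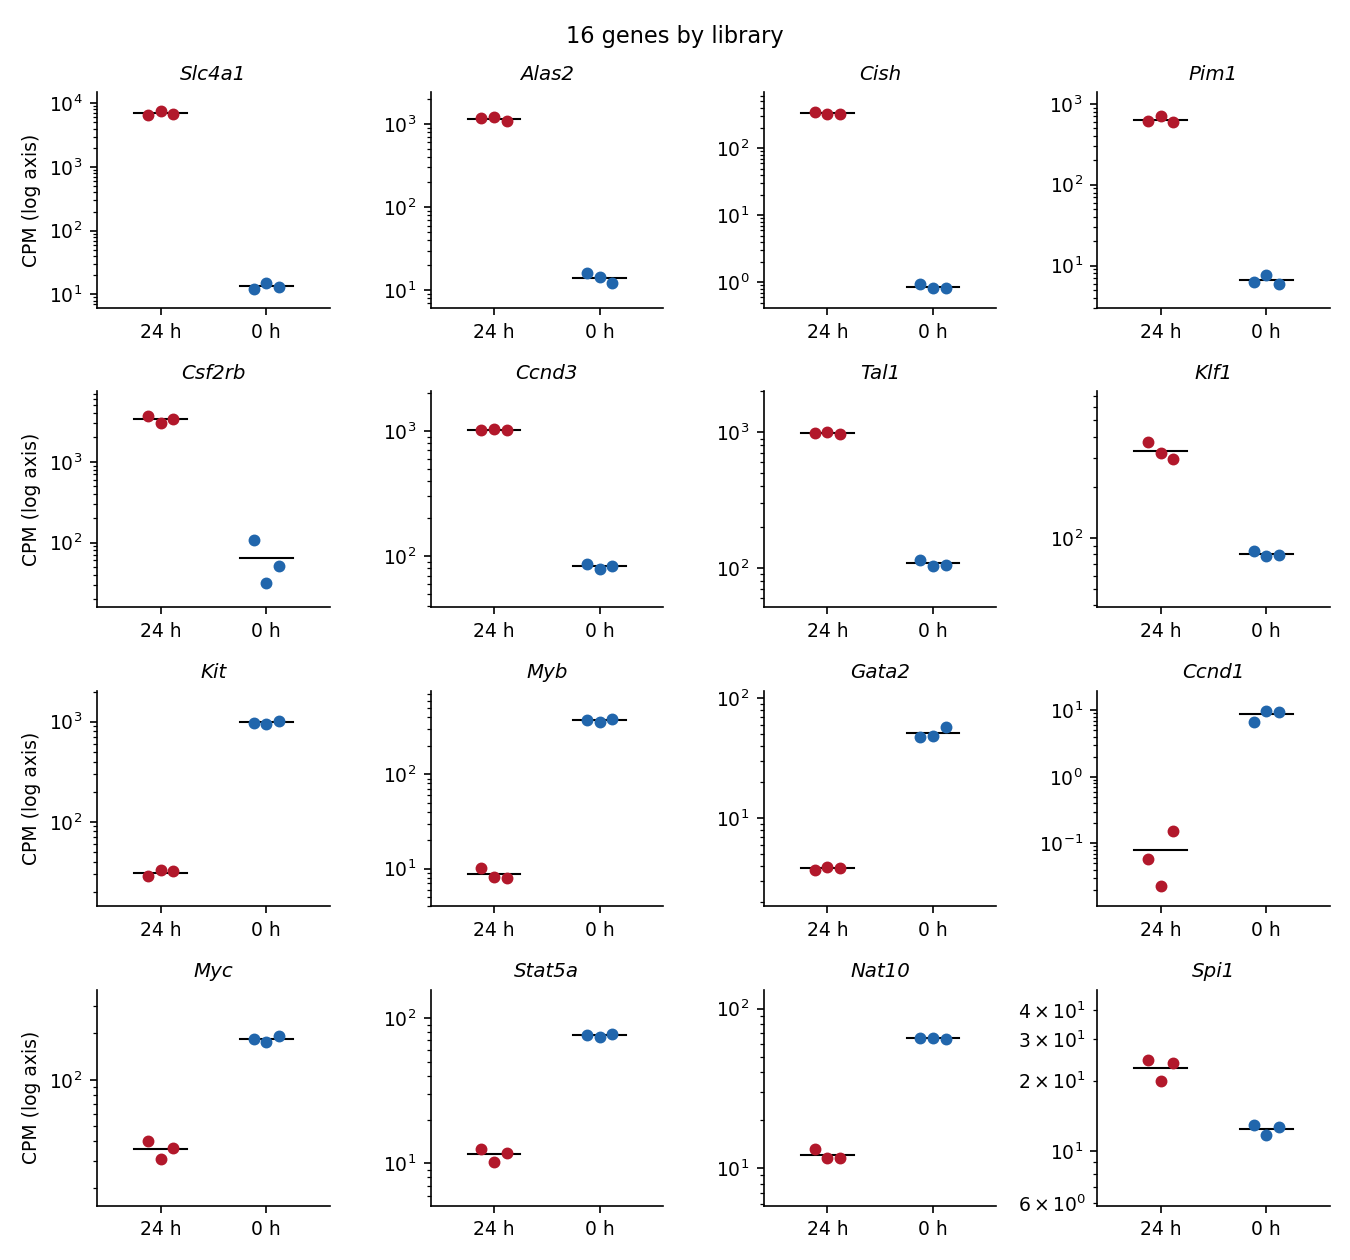
CPM on a log axis for 16 genes, with the 3 libraries at 24 h (red, left) and the 3 at 0 h (blue, right) as points and the mean of each group as a line. The groups do not overlap in any panel; Csf2rb at 0 h and Ccnd1 at 24 h spread the most among replicates.

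Gata2 fell and Gata1, already present at 0 h, rose. Gata2 had 3.68, 3.96 and 3.84 CPM at 24 h, against 47.6, 48.7 and 57.8 CPM at 0 h, a log2 change of -3.75 ± 0.18 (SE; adjusted p = 2.33e-13). Gata1 had 384, 405 and 376 CPM at 24 h, against 129, 117 and 116 CPM at 0 h, a log2 change of 1.68 ± 0.08 (SE; adjusted p = 3.18e-13). The 2 genes are compared here only each with itself; neither group of libraries overlapped the other for either gene. Of 21 erythroid regulators 16 rose and 4 fell (median log2 change 1.47). E2f2 (4.02), the E2F family member known for its role in erythroblasts, Nfe2 (3.73), Sox6 (3.67), Tal1 (3.19) and Klf1 (2.03) rose (log2 change). The 4 that fell were Ikzf1 (-1.24), Bcl11a (-0.66), the demethylase gene Kdm1a (-0.48) and Hmgb3 (-0.27, not called without replicate 2 of either group), and Ldb1, which holds the GATA1 and TAL1 complex together, was not called (141 ± 6.42 CPM at 24 h and 138 ± 6.99 CPM at 0 h; SD, n = 3 each; adjusted p = 0.860).

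Progenitor regulators were split rather than switched off together. Myb, which holds back terminal differentiation, had 10.2, 8.09 and 7.98 CPM at 24 h, against 374, 361 and 384 CPM at 0 h, a log2 change of -5.41 ± 0.23 (SE; adjusted p = 3.43e-14). Besides Myb, Kit and Gata2, the genes Hhex, Etv6 and Ikzf2 fell, 6 of the 10 tested. The other 4 rose, and on log2(TPM + 1) 2 of 8 rose and 5 fell. Spi1, which encodes PU.1 and opposes GATA1 in blood cells, had 24.5, 19.9 and 23.7 CPM at 24 h, against 12.9, 11.7 and 12.6 CPM at 0 h, a log2 change of 0.87 ± 0.12 (SE; adjusted p = 1.17e-06). Runx1 (1.49), Lyl1 (0.82, not called on log2(TPM + 1)) and Gfi1 (1.70, with a mean of 0.103 CPM at 0 h) rose too (log2 change).

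Genes of cholesterol synthesis rose nearly as a block. Of 25 members 24 rose and 1 fell (median log2 change 2.38), and 23 of the 24 members in the TPM fit rose there as well. Fdft1, squalene synthase, had 147, 182 and 160 CPM at 24 h, against 9.37, 9.67 and 9.18 CPM at 0 h, a log2 change of 4.11 ± 0.17 (SE; adjusted p = 1.96e-14). Hsd17b7, whose upstream sequence is given above, had a log2 change of 3.40, and the pathway regulators Insig1 and Srebf2 ones of 2.77 and 2.05. Dhcr7, the last reductase of the pathway, fell slightly, with 85.3, 95.7 and 89.5 CPM at 24 h and 114, 108 and 116 CPM at 0 h (log2 change -0.32 ± 0.11, SE; adjusted p = 0.0138), and without replicate 1 of the 24 h group the fall was not called (-0.28; adjusted p = 0.0563). Fatty acid synthesis genes did not share this pattern: 10 of 18 rose and 6 fell, or 8 and 8 on log2(TPM + 1), with Scd2 at 1.44 and the elongase gene Elovl5 at -2.08 (log2 change).

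**Figure D3:**
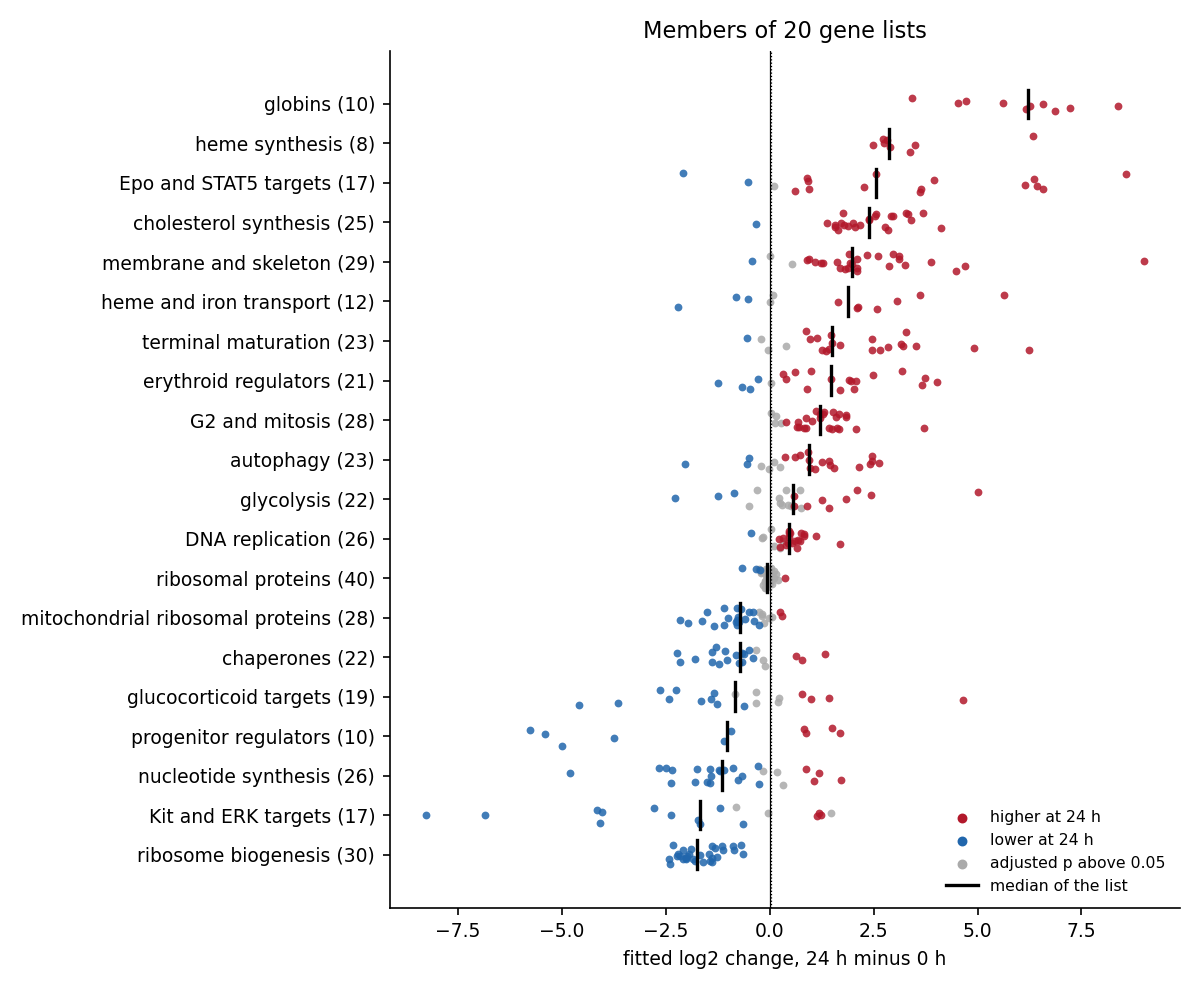
Fitted log2 change (24 h minus 0 h) of each tested member of 20 gene lists, with the number of members in brackets, red for members called higher at 24 h, blue for lower, grey for members above the threshold and a black bar for the median. All members of the globin and heme synthesis lists lie right of 0 and all 30 of the ribosome biogenesis list lie left of it; the dotted line is the median of all genes, 0.03.

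Most of the genes of G2 and mitosis rose, and the D-type cyclins moved in different directions. Of 28 genes of G2 and mitosis 24 rose and 0 were called lower (median log2 change 1.22), against 19 and 1 on log2(TPM + 1). Mki67, the proliferation marker, had 3240, 3653 and 3577 CPM at 24 h, against 809, 876 and 809 CPM at 0 h, a log2 change of 2.07 ± 0.20 (SE; adjusted p = 1.12e-08). The largest rise of the list was that of the phosphatase gene Cdc25b (3.71 ± 0.15, SE; adjusted p = 1.24e-14). Among 26 DNA replication genes 19 were called higher and 1 lower (median 0.46) on the TMM scale, but on log2(TPM + 1) 4 were higher and 4 lower. Ccnd3, the cyclin D that erythroid cells use to set cell size and the number of divisions, had 1018, 1037 and 1011 CPM at 24 h, against 86.8, 78.4 and 83.3 CPM at 0 h, a log2 change of 3.63 ± 0.13 (SE; adjusted p = 1.53e-15). Against this stood the fall of Ccnd1 given above and a rise of Ccnd2 (0.91 ± 0.15, SE; adjusted p = 2.53e-05). The rise of Ccnd2 was not called on log2(TPM + 0.1) (0.56; adjusted p = 0.0836) or on log2(TPM + 1) over genes above 0 in 3 libraries (0.55; adjusted p = 0.0941). Rb1, the retinoblastoma gene, rose (2.78), Cdk4 fell (-1.35), and Cdk6 was not called, with 385 ± 29.7 CPM at 24 h and 425 ± 22 CPM at 0 h (SD, n = 3 each; adjusted p = 0.353). Of 8 CDK inhibitor genes 6 rose and 1 fell. Cdkn2c, p18, had a log2 change of 1.6 and Cdkn1b, p27, of 0.93. Cdkn1a, p21, rose by 3.47 but reached only 0.776 ± 0.217 CPM at 24 h, against 0.0623 ± 0.0650 CPM at 0 h (SD, n = 3 each). Its log2 change was 4.46 without replicate 3 of the 0 h group.

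Genes for making ribosomes fell without exception on both scales. All 30 ribosome biogenesis genes fell, with a median log2 change of -1.74 and a range of -2.42 to -0.64. Nat10, the rRNA acetyltransferase, had 13.2, 11.6 and 11.6 CPM at 24 h, against 65.6, 65.6 and 64.4 CPM at 0 h, a log2 change of -2.42 ± 0.10 (SE; adjusted p = 3.29e-14). Npm1, nucleophosmin, averaged 226 ± 22.4 CPM at 24 h and 1044 ± 114 CPM at 0 h (SD, n = 3 each), a log2 change of -2.21 ± 0.16 (SE; adjusted p = 1.21e-10). The ribosomal proteins themselves moved little: of 40 genes 1 was called higher and 3 lower (median -0.06), and on log2(TPM + 1) 0 were called higher and 20 lower. Of 10 genes of the MYC, MAX and MXD network 4 rose and 6 fell (median log2 change -0.36), or 3 and 6 on log2(TPM + 1). Myc had 40.1, 30.6 and 36.0 CPM at 24 h, against 185, 177 and 191 CPM at 0 h, a log2 change of -2.37 ± 0.20 (SE; adjusted p = 1.36e-09), whereas its antagonists Mxd3 (2.74), Mxd1 (2.51) and Mxi1 (1.56) rose (log2 change). Of 26 nucleotide synthesis genes 19 fell and 4 rose. The falls were led by Dctd (-4.80), Dhodh (-2.67) and Cad (-2.50), the last of which starts pyrimidine synthesis, and the rises were those of Rrm2 (1.72), Tyms (1.18), Tk1 (1.06) and Rrm1, which supply deoxynucleotides. Chaperone genes fell in 16 of 22 cases and rose in 3, with Hsph1 at -2.22 and Hspd1 at -2.15, and mitochondrial ribosomal protein genes fell in 20 of 28 cases and rose in 2, against 24 and 0 on log2(TPM + 1).

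Respiration and protein turnover gave calls that depended on the scale. Nuclear-encoded respiratory chain genes spanned log2 changes of -0.36 to 0.73; 15 of 31 were called higher and 2 lower on the TMM scale, against 0 and 8 on log2(TPM + 1). Of 31 proteasome genes 14 rose and 7 fell, against 1 and 10 on log2(TPM + 1); Psmc3, an ATPase subunit, rose on both, by 1.09 and 0.66.

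Genes that act late in red cell maturation had already risen on the first day. Of 23 such genes 19 rose and 1 fell (median log2 change 1.5). Cpeb4, an RNA-binding protein that represses translation in maturing erythroblasts, had 519, 621 and 664 CPM at 24 h, against 19.8, 19.96 and 20.1 CPM at 0 h, a log2 change of 4.91 ± 0.12 (SE; adjusted p = 1.23e-17). Bnip3l, the mitophagy receptor NIX, averaged 269 ± 26.9 CPM at 24 h and 48.8 ± 2.24 CPM at 0 h (SD, n = 3 each), a log2 change of 2.46 ± 0.13 (SE; adjusted p = 1.20e-12). Trim58, a ubiquitin ligase of enucleating erythroblasts, was the member that fell (-0.54 ± 0.17, SE; adjusted p = 0.00666), and its fall was not called without replicate 2 of the 24 h group (-0.42; adjusted p = 0.0512). Xpo7, a nuclear exportin of late erythroblasts, was not called (-0.21 ± 0.11, SE; adjusted p = 0.0923). It was called lower by DESeq2 (adjusted p = 0.0347), with only the compared groups in the fit (adjusted p = 0.0101) and in all 3 TPM fits (-0.56 to -0.54; adjusted p = 0.00832 to 0.0096). Autophagy genes rose in 16 of 23 cases and fell in 3, with Wipi1 at 2.63 and Atg5 at -2.03. Among survival genes Bcl2l1, which encodes BCL-XL, had 81.9, 87.0 and 73.4 CPM at 24 h, against 13.2, 14.8 and 12.9 CPM at 0 h (log2 change 2.57 ± 0.14, SE; adjusted p = 1.71e-12), and Bcl2 fell to 1.66 ± 0.0902 CPM at 24 h, against 13.3 ± 0.194 CPM at 0 h (SD, n = 3 each; log2 change -2.99 ± 0.17, SE; adjusted p = 3.60e-12). Prdx2, the main red cell peroxiredoxin, had a log2 change of 3.06 ± 0.11 (SE; adjusted p = 3.38e-15), and 14 of 21 peroxide defense genes rose while 3 fell.

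The 24 h libraries disagreed with each other in many glycolysis genes, though not only there. Over all genes, 49 were at least 2-fold off the partner libraries in replicate 1 (on CPM + 0.5), 20 in replicate 2 and 27 in replicate 3. Replicate 1 was the lowest of the 3 libraries at 24 h in 18 of the 22 glycolysis genes tested. At 0 h replicate 3 was the lowest in 16 of them, though with a median deviation of only -0.05. Of the 22 genes 9 rose and 3 fell (median log2 change 0.55), 11 rose and 3 fell without replicate 1 of the 24 h group, and on log2(TPM + 1) 4 of 20 were higher and 5 lower. Slc16a3, a lactate transporter, had 7.62, 58.5 and 37.4 CPM at 24 h, against 1.03, 1.32 and 0.870 CPM at 0 h, a log2 change of 5.02 ± 0.63 (SE; adjusted p = 5.36e-07), of 5.50 without replicate 1 of the 24 h group and of 4.40 without replicate 2. Bnip3, a mitophagy receptor that responds to low oxygen, had 5.68, 74.7 and 50.9 CPM at 24 h, against 7.12, 9.39 and 7.39 CPM at 0 h. The groups overlapped for Bnip3 through replicate 1; its log2 change was 2.46 ± 0.58 (SE; adjusted p = 0.000913) with that library, 2.98 without it (adjusted p = 2.21e-06) and 1.82 without replicate 2 (adjusted p = 0.0108). On log2(TPM + 1) over genes above 0 in 3 libraries Bnip3 was not called (1.47; adjusted p = 0.067). Pgam1, phosphoglycerate mutase, had 88.0, 308 and 272 CPM at 24 h, against 163, 169 and 162 CPM at 0 h, so that replicate 1 lay below and the other libraries above every 0 h library. The gene was not called with that library (log2 change 0.43; adjusted p = 0.405) or without it (0.81; adjusted p = 0.102). In other members the 24 h libraries lay close together: Pklr, erythroid pyruvate kinase, had 558, 605 and 573 CPM at 24 h, against 245, 242 and 240 CPM at 0 h (log2 change 1.26 ± 0.12, SE; adjusted p = 5.57e-09; 1.28 without replicate 1). Bpgm, which makes 2,3-bisphosphoglycerate, had a log2 change of 1.42 ± 0.11 (SE; adjusted p = 3.01e-10; 1.46 without replicate 1). Hexokinase 2, Hk2, was lower in all 3 libraries, with 0.352, 6.31 and 3.68 CPM at 24 h and 16.1, 18.3 and 14.8 CPM at 0 h (-2.27 ± 0.47, SE; adjusted p = 0.000257). The change was -1.70 without replicate 1 of the 24 h group and -3.13 without replicate 2. What sets replicate 1 apart was not tested.

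**Figure D4:**
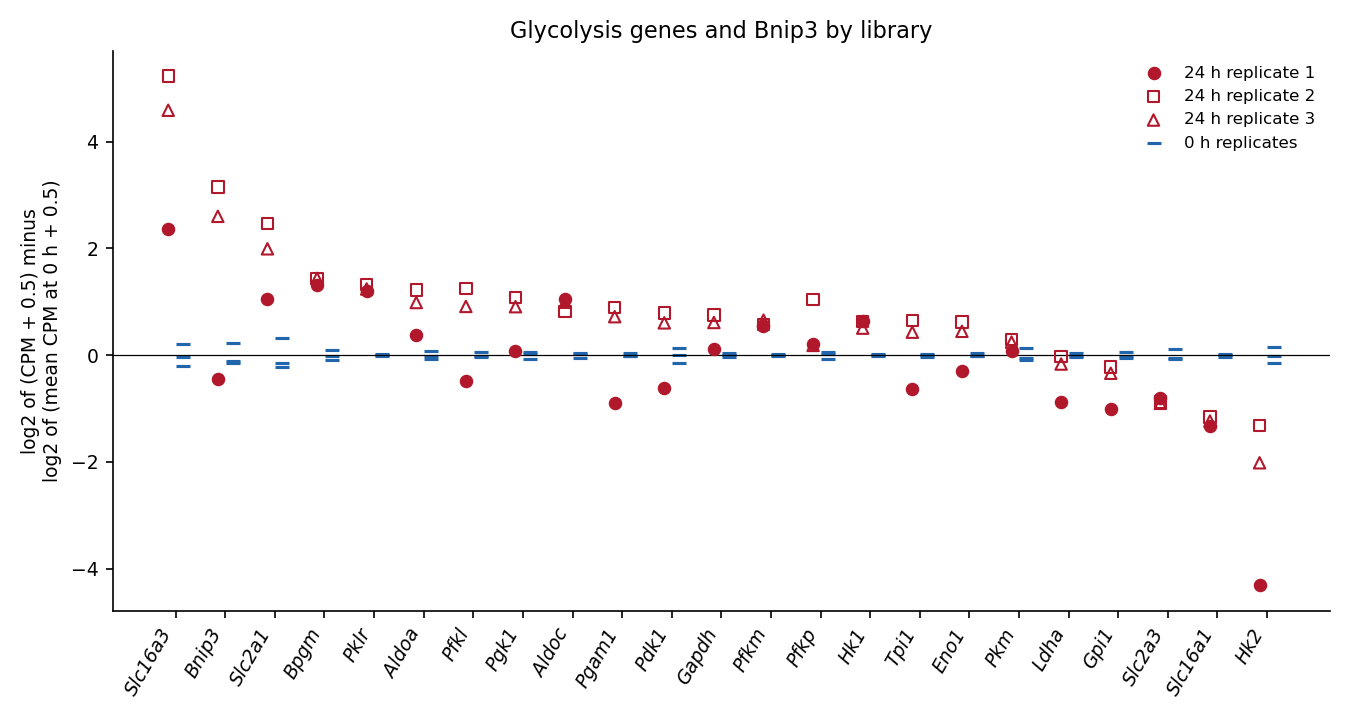
Log2 of CPM + 0.5 relative to the 0 h mean for 22 glycolysis genes and Bnip3, with the 3 libraries at 24 h as red symbols (replicate 1 filled, replicates 2 and 3 open) and the 3 at 0 h as blue dashes. Replicate 1 is the lowest of the 24 h libraries in 18 of the 22 glycolysis genes, and for Bnip3 and Pgam1 it lies below 0 while its partners lie above.

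Some of the widest changes lay outside these lists. Clec4g, a C-type lectin, had no count at 0 h and 1646 counts at 24 h, and was at least 628-fold higher when set against a floor of 3 counts over the 0 h group. The apolipoprotein L gene Apol11b had 277, 184 and 204 CPM at 24 h, against 0.153, 0.127 and 0.204 CPM at 0 h (log2 change 10.37 ± 0.43, SE; adjusted p = 2.25e-14), and its relative Apol8 had a log2 change of 7.92 ± 0.25 (SE; adjusted p = 4.13e-16). The mast cell protease gene Mcpt1 had 716, 675 and 683 CPM at 24 h, against 2.92, 1.17 and 1.69 CPM at 0 h, a log2 change of 8.46 ± 0.30 (SE; adjusted p = 2.56e-15). Mast cell markers as a list went both ways, 4 of the 9 tested in each direction. Mcpt1, Mcpt2, Mcpt4 and Fcer1a rose, while Hdc (-5.67), Ms4a2 (-4.91), Cpa3 (-2.40) and Il1rl1 (-2.14) fell (log2 change). Fcer1a had only 3, 3 and 2 counts at 24 h and 0 at 0 h, and Mcpt4 had 2 counts in each 0 h library. The list summed to 992 to 1058 CPM at 24 h, mostly from Mcpt1 and Mcpt2, and to 200 to 238 CPM at 0 h, mostly from Il1rl1. Megakaryocyte markers summed to 115 to 127 CPM at 24 h, mostly from Itga2b and Gp9. At 0 h they summed to 17.9 to 22.8 CPM, mostly from Itga2b. Pf4 and Ppbp had 0 or 1 count in every library. At the falling end, Klhl6 had 1.80, 1.97 and 0.873 CPM at 24 h, against 171, 160 and 172 CPM at 0 h (log2 change -6.71 ± 0.26, SE; adjusted p = 6.62e-15), and the pseudokinase gene Trib2 had a log2 change of -5.48 ± 0.18 (SE; adjusted p = 5.40e-16).

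The 12 h libraries dated these changes. At 12 h 6539 genes (52.9%) already differed from 0 h, and 5079 (41.1%) differed between 24 h and 12 h. A gene that moves evenly on the log2 scale lies at 12 h on the midpoint of its 24 h and 0 h levels. Off it were 3124 genes (25.3%), 1719 above (13.9%) and 1405 below (11.4%). Which side held more genes depended on the scaling, with 1884 above and 2075 below by DESeq2. Of the 1968 genes that rose at least 2-fold, 729 had made more than their even share of the rise by 12 h, 78 had made less, and 1161 were not called off the midpoint. Of the 1915 genes that fell at least 2-fold, these numbers were 501, 121 and 1293. All 8 heme synthesis genes and 13 of the 29 membrane genes lay above the midpoint, with 0 and 1 below it. Cish averaged 0.869 ± 0.0577, 190 ± 22.7 and 332 ± 12.5 CPM at 0, 12 and 24 h (SD, n = 3 each), so that most of its rise on the log2 scale fell before 12 h. Cholesterol synthesis genes were the reverse, with 0 of 25 above the midpoint and 10 below; Hmgcs1 averaged 28.6 ± 3.07, 58.8 ± 8.46 and 279 ± 19.0 CPM at 0, 12 and 24 h (SD, n = 3 each). Bcl2l1 was also late, at 13.6 ± 1.01, 24.7 ± 1.79 and 80.8 ± 6.83 CPM (SD, n = 3 each; -0.42 from the midpoint on the log2 scale, adjusted p = 0.0111).

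A small group of genes turned round at 12 h, so that the comparison of 24 h with 0 h understates or hides their movement. At 12 h 88 genes (0.712%) were at least 2-fold above both other times and 30 (0.243%) at least 2-fold below both. Etv5, an ERK-dependent ETS factor, averaged 37.2 ± 0.551, 0.184 ± 0.0535 and 2.17 ± 0.768 CPM at 0, 12 and 24 h (SD, n = 3 each). Gp1ba, a platelet glycoprotein gene, averaged 3.21 ± 0.0198, 0.391 ± 0.167 and 8.81 ± 0.439 CPM at the same times (SD, n = 3 each), a dip followed by a rise past the starting level. The epithelial ETS factor gene Ehf went up and back, at 0.242 ± 0.147, 14.5 ± 4.58 and 1.97 ± 1.35 CPM (SD, n = 3 each). Lyl1 and Cpd were chosen after their values were seen. Lyl1, a relative of TAL1, averaged 42.2 ± 4.08, 12.4 ± 0.430 and 74.4 ± 7.86 CPM (SD, n = 3 each). Cpd, carboxypeptidase D, averaged 239 ± 4.28, 809 ± 21.4 and 209 ± 27.7 CPM (SD, n = 3 each), and its difference between 24 h and 0 h was not called (adjusted p = 0.237; lower by limma on log2(TPM + 1), adjusted p = 0.00404).

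**Figure D5:**
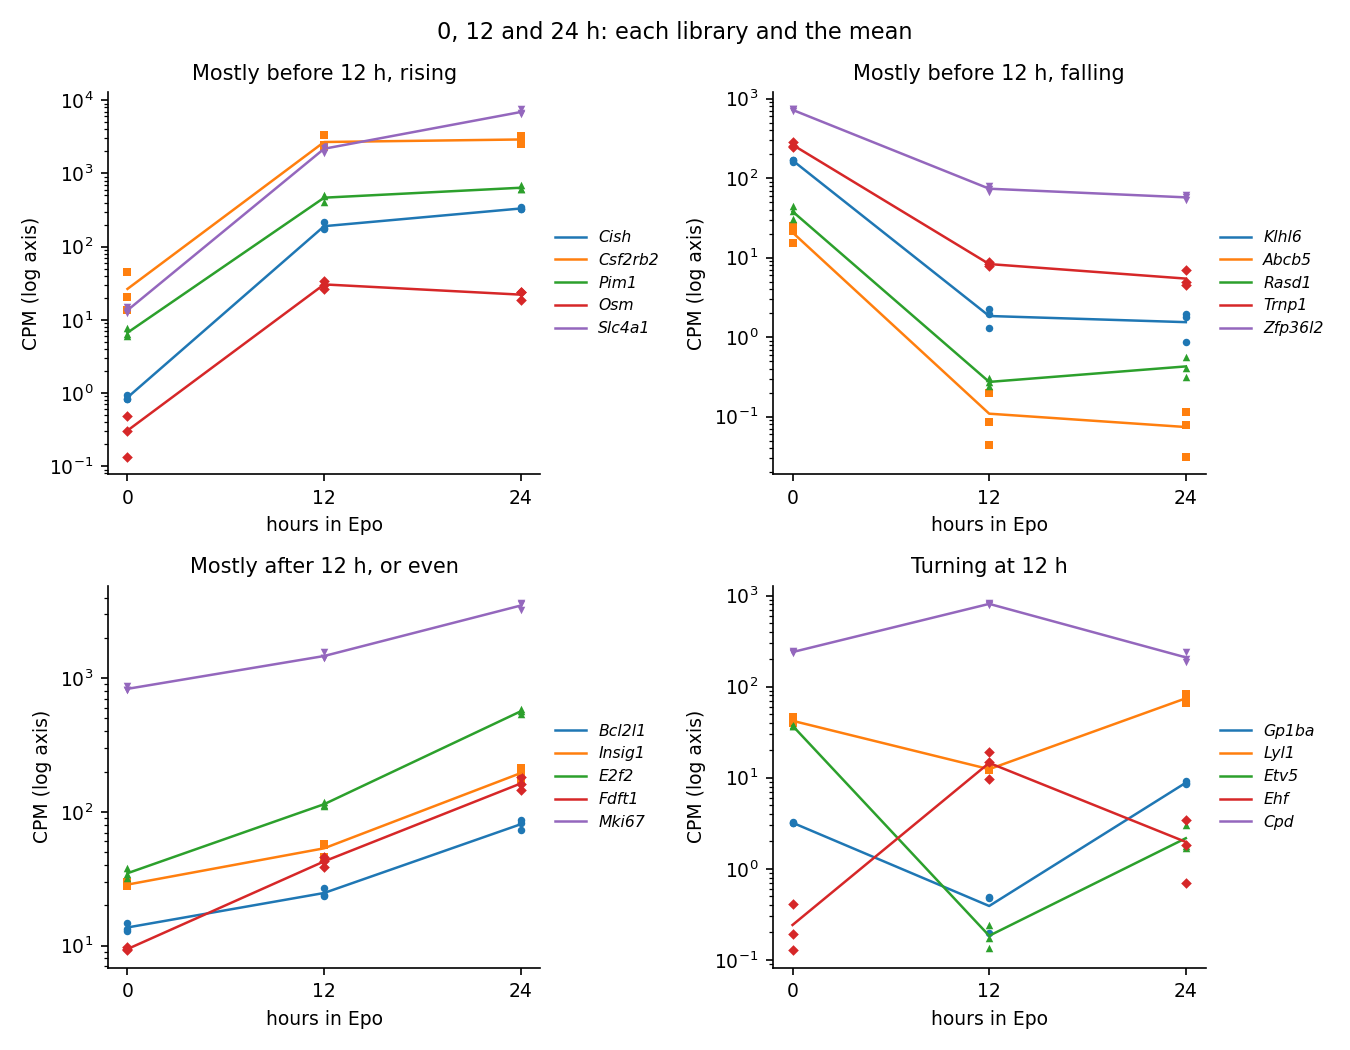
CPM on a log axis at 0, 12 and 24 h for 20 genes in 4 panels, with 1 point per library and a line through the means. The upper panels hold genes that moved mostly before 12 h, the lower left panel genes that moved evenly or mostly after it, such as Fdft1 and Bcl2l1, and the lower right panel genes that turned at 12 h, of which Gp1ba, Lyl1 and Etv5 dipped and Ehf and Cpd peaked.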

How the data were processed

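Strand-specific RNA-seq of polyadenylated RNA was deposited by the authors as a table of estimated counts per gene and a table of TPM, with 1 column for each of 21 libraries. The submitters' processing notes name STAR 2.5.3a, kallisto and DESeq2 and the builds GRCm38.p5 and mm10, without saying which step used which. Of the deposited estimated counts 78.5% were whole numbers (tolerance 1e-06), and all were rounded. Genes were filtered with filterByExpr (minimum count 10), which kept 12360 of 22483, and all 21 libraries in 7 groups were fitted with the edgeR 4.0.16 quasi-likelihood test (R 4.3.3, TMM scaling, no covariate, Benjamini-Hochberg adjustment over all genes tested, threshold 0.05). SE is the size of the log2 change over the square root of F. CPM uses TMM-scaled library sizes and compares a gene with itself, and TPM compares levels between genes. The midpoint test is the contrast of 12 h with the mean of 24 h and 0 h. A change that turns at 12 h needed a fold of at least 2 and a call against both other times. The biological coefficient of variation was 11.6%. In simulated counts of 12360 genes, changes of 1.5-fold, 2-fold and 4-fold between 24 h and 0 h were planted in 67, 67 and 66 genes. Of these, 64.2% of 1.5-fold, 88.1% of 2-fold and all of 4-fold changes were recovered. The planted genes were above a minimum expected count, so recovery at low counts was not tested. All other genes were equal at 24 h and 0 h, whereas 65.9% were called in the data.

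Alternatives were DESeq2 1.42.0, its size factors in edgeR, library sizes without globin genes, no filter, a fit of the compared groups alone, a replicate block, limma 3.58.1 on log2(TPM + 1) and on log2(TPM + 0.1) where the mean TPM reached 1, limma on genes above 0 in 3 libraries, and leaving out each library. Named genes were the 15 largest rises and falls (groups not overlapping, mean count 100 or more), the 3 called members of each list that moved most each way, a panel of erythroid genes, the 10 highest in TPM at each time and the 8 furthest above and below the midpoint. Genes named outside that rule, among them Urod, Epb42, Rhag, Socs1, Socs2, Fkbp5, Tsc22d3, Ldb1, Lyl1, Npm1, Pgam1, Pklr, Bpgm, Hmgcs1, Cpd and the markers of other cell types, were chosen after their values were seen. The members and lists were chosen with earlier results of these data known. Gene positions are from GENCODE M21 (GRCm38). Intervals of ratios at low counts are 95% and cover counting error only. The libraries after 24 h and those with succinyl acetone were in the fit but are not described here.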

Additional observations from a re-analysis of the deposited data

How the results depend on the processing

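Of the 158 genes named, 143 kept their direction and their side of the threshold in every alternative run that held them, and the direction of 4 uncalled genes turned. Some of the 158 were absent from the TPM fits that needed a mean TPM of 1, so they were not tested there. Rhag was -0.011 with DESeq2 and with its size factors in edgeR, -0.36 on TPM, and -0.016 to 0.0596 with 1 library left out. Ldb1 was -0.00217 with DESeq2, -0.0021 with its size factors in edgeR, -0.34 and -0.33 on log2(TPM + 0.1) and log2(TPM + 1), and -0.0048 to 0.066 with 1 library left out. Pgam1 was -0.093 on log2(TPM + 0.1) and -0.091 on log2(TPM + 1), and Tsc22d3 -0.18 on both.

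On log2(TPM + 0.1), 1612 genes were higher (955 at least 2-fold), 1170 were off the midpoint (933 above, 237 below), and 73 turned at 12 h (58 peaks, 15 dips). On log2(TPM + 1) the numbers were 1794 higher (838 at least 2-fold), 540 below the midpoint and 51 turning (43 peaks, 8 dips), and over genes above 0 in 3 libraries 2331 higher (878), 675 below and 54 turning (46 and 8). With only the compared groups in the fit, 5118 genes were off the midpoint (2744 above, 2374 below). More genes lay below the midpoint than above it with DESeq2 (1884 above, 2075 below) and with its size factors in edgeR (1570 above, 1671 below). The cause was not tested.

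Leaving out 1 library gave 7615 to 8075 called genes (3681 to 3932 higher, 3848 to 4143 lower), 3746 to 3914 at least 2-fold (1892 to 1968 higher, 1817 to 1946 lower), 2198 to 2875 off the midpoint (1290 to 1623 above, 895 to 1262 below, the lowest without replicate 2 of 12 h) and 97 to 127 turning (67 to 96 peaks, 26 to 31 dips). The alpha sum ranged over 6.03 to 6.36 and the beta sum over 6.84 to 7.40 (log2).

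The deviations of 24 h and 0 h libraries with the same replicate number correlated at 0.299, 0.188 and 0.0999 over 7091 genes. Libraries of unlike number correlated at -0.286 to -0.0132, except that 24 h replicate 3 was closest to 0 h replicate 2 (0.203). Neither these values nor the labels settle whether the numbers mark pairs, and the main fit did not use them. With a replicate block 8342 genes were called (4072 higher, 4270 lower). Counts in lists near a median of 0 move with the scale, and at low counts fitted changes are imprecise. Of 100 counts of list members called higher or lower, 19 moved outside the TPM alternatives and 31 moved in them. A count moved if it changed by more than a set factor, or from or to 0. Ribosomal proteins called lower, for example, numbered 7 with DESeq2 and 3 in the main fit.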

Other observations

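Several metabolic and stress lists had members moving in both directions. Over all genes 32.1% were higher and 33.9% lower. Of 27 amino acid and ATF4 genes 12 rose and 8 fell (median log2 change 0.30, against 0.03 over all genes), or 9 and 9 of 24 on log2(TPM + 1). The stress-induced genes Ppp1r15a (3.27), Trib3 (3.15) and Chac1 (2.96) rose, while the serine synthesis enzymes Psat1 (-2.57) and Phgdh (-1.76) fell (log2 change). Of 11 polyamine genes 5 rose and 3 fell, or 4 and 4 on log2(TPM + 1), with spermine oxidase, Smox, at 4.02 and spermidine synthase, Srm, at -2.56 (log2 change). Of 8 DNA methylation genes 1 rose and 3 fell, or 0 and 4 on log2(TPM + 1), the de novo methyltransferase Dnmt3b by the most (log2 change -3.75).

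Of 20 interferon-stimulated genes 4 rose and 4 fell, fewer each way than over all genes (median -0.01 on the log2 scale; 3 and 3 of 17 on log2(TPM + 1)), with Irf7 at 2.28 and Usp18 at -2.88. Of 17 p53 target genes 10 rose and 5 fell, or 6 and 7 of 14 on log2(TPM + 1). Stromal markers summed to 0.972 to 2.33 CPM at 24 h and 35.1 to 42.2 CPM at 0 h, nearly all from Vim.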
